A study of Mus musculus with 3 samples.

Results

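Ciliated cells of the mouse larynx were described here in 3 single-cell libraries made from sorted tdTomato-positive laryngeal cells. A kept cell was called ciliated when at least 5 of the 8 genes Foxj1, Dnah5, Ccdc153, Tekt1, Rsph1, Dynlrb2, Tmem212 and Cfap126 had a UMI (a unique molecular identifier, which stands for 1 captured RNA molecule) and Trp63, a basal-cell transcription factor, had fewer than 2. The rule chose 1392 of 41033 kept cells, with 517 in library 1, 290 in library 2 and 585 in library 3. The members were thus chosen by their own measured RNA, so the 8 genes and their co-expressed partners describe the cells and give no test of them.

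The mice carried Lrig1CreERT2/+ together with ROSA26CAG-LSL-tdTomato/+, and received tamoxifen, which releases the Cre and switches on the red reporter. Cells were sorted on tdTomato 24 h after recombination, and each library pooled 10 larynges, 5 from males and 5 from females. All 3 libraries had the same genotype and treatment, so no treated group was set against a control. The Cre was driven from the Lrig1 locus, so the sort took cells that expressed Lrig1 when tamoxifen was given, or their recent descendants, and the other cells of the larynx were not sampled. The age of the mice is not given in the sources used here, and neither tdTomato nor the Cre was among the features counted, and the sort therefore has no check in these counts.

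Multiciliated cells carry many motile cilia on their apical face and move mucus along the airway. Each cilium grows from a basal body and holds an axoneme, in which outer and inner dynein arms, radial spokes and a central pair of microtubules power and time the beat. In airway epithelium these cells arise from basal or secretory cells when Notch signalling is low, through Gmnc and Mcidas, which start the amplification of centrioles, and through Foxj1 and the Rfx factors, which switch on the genes of the axoneme. Some genes below were named because of their measured values and not by the rule set for naming genes, and those choices were made after the values were seen.

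The Rfx factors bind a palindromic DNA element, the X-box. Its core GTTGCCA, searched on both strands in the 250 bases upstream of each gene start (mouse genome GRCm39, GENCODE annotation), was found for 16 of 116 axonemal genes whose RNA was higher in ciliated cells (13.8%), and for 1 of 31 intraflagellar transport genes that were higher (3.23%). The same core was found for 611 of all 18122 tested genes with a start site (3.37%), for 120 of 1594 genes that passed the test described below with a log2 difference of 3 or more in favour of ciliated cells (7.53%) and for 30 of 844 genes with one of -3 or less (3.55%). The forkhead core TGTTTAC was found for 6 of the 116 axonemal genes (5.17%) and for 453 of all 18122 (2.50%). Neither core was present in the 250-base windows of the 8 genes of the rule. A match describes letters in a window and shows no binding. The 4 windows of 60 bases below lie just upstream of genes abundant in ciliated cells, and show how close to the gene start the core can lie. All are printed 5′ to 3′ on the minus strand, which is the strand of each gene, with the match in capitals.
Sntn, chr14:8798920-8798979: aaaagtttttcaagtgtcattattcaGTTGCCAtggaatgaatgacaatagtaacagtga
Cibar2, chr8:120904206-120904265: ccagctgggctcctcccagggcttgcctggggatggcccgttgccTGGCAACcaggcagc
Zbbx, chr3:75072380-75072439: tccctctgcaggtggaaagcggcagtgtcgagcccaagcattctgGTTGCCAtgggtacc
Iqca, chr1:90081243-90081302: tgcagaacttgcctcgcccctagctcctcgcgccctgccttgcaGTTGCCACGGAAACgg
In Sntn, which encodes a protein of the ciliary tip, the match began 58 bases before the gene start. In Cibar2 and Zbbx it began 15 bases before the start, and in Cibar2 it lay on the opposite strand. The longer palindrome was searched as GTTNCC and GGNAAC with exactly 2 bases of any kind between. Iqca was the only axonemal gene with such a match (1 of 116, 0.862%, against 70 of 18122, 0.386%), and there the whole palindrome is in capitals. Other spacings were not searched. In the Cibar2 window, and in that of the axonemal gene Dydc1, GTTGCC and GGCAAC stood with 1 base between. Iqca measured 477, 527 and 578 CPM in ciliated cells and 1.59 to 1.80 CPM in the other Epcam-positive cells. The windows of Zbbx and Iqca overlapped exons of a non-coding RNA annotated on the opposite strand.

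The number of rule genes with a UMI, which defines the cells, ran as follows. Among kept cells with fewer than 2 Trp63 UMIs, 13484 had none of the 8 genes, 2434 had 1, 302 had 2, 92 had 3 and 72 had 4. Across the threshold the numbers were nearly even, and they then grew, with 85 cells at 5 genes, 109 at 6, 238 at 7 and 960 at all 8, which was 69.0% of the ciliated cells. Cells just inside the threshold, with 5 genes, held 3398, 4965 and 4507 CPM (the UMIs of a gene per 1000000 UMIs of the summed cells) of the 8 genes together in libraries 1, 2 and 3, at median depths of 2001.5, 1553.5 and 1556 UMIs. Cells just outside it, with 4 genes, held 733, 1843 and 1253 CPM at 7236, 2788.5 and 2465 UMIs. Trp63 set aside another 176 cells that passed the count of rule genes, of which 165 were Epcam-positive and stayed among the other Epcam-positive cells, where they add to the levels of ciliary genes.

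**Figure D1:**
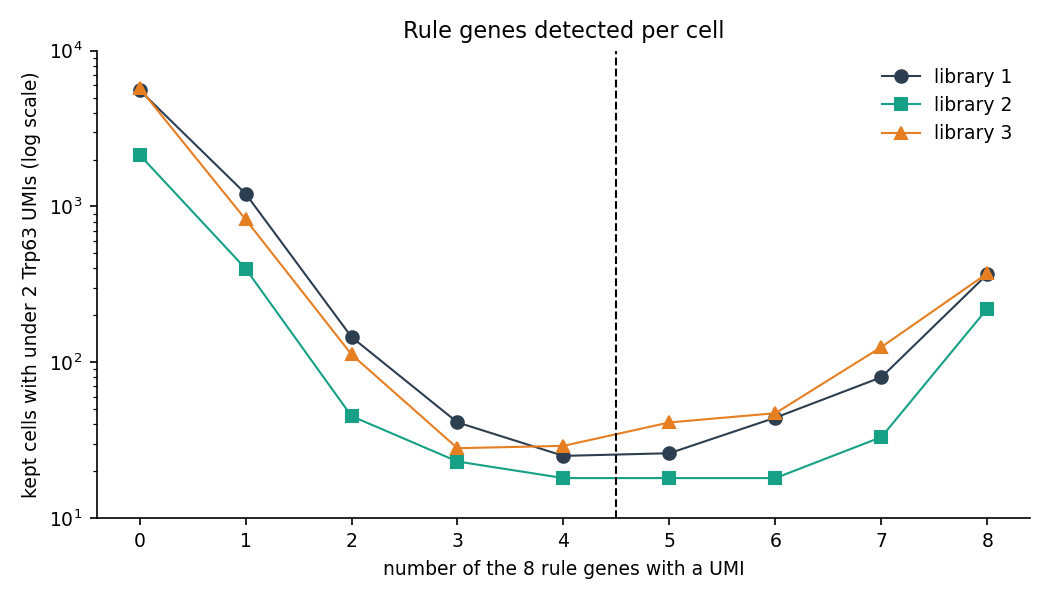
Number of kept cells with fewer than 2 Trp63 UMIs (vertical axis, log scale) by how many of the 8 rule genes had a UMI (horizontal axis), with a line for each library and a dashed line at the threshold. Over the 3 libraries the count falls from 13484 cells with none of the genes to 72 cells with 4, and rises to 960 cells with all 8.

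Ciliated cells made up 4.12% (95% Wilson interval 3.79 to 4.48), 4.06% (3.63 to 4.54) and 2.74% (2.53 to 2.97) of the kept cells, with a mean of 3.64% ± 0.780 (SD, n = 3). Libraries 1 and 2 overlapped within counting error and library 3 lay below both. They were shallower cells than the other Epcam-positive cells, with medians of 8585, 11818 and 5585 UMIs against 13184.5, 18046.5 and 14560.5, a ratio of 0.563 ± 0.156 (SD, n = 3). The other cells had to hold an Epcam UMI, which ciliated cells did not, and deeper cells more often hold one. Less RNA per cell, poorer capture of it and this gate cannot be told apart. The mitochondrial share was alike, at 3.32%, 3.19% and 3.08% against 3.29%, 3.10% and 2.99%. Epcam, an epithelial adhesion molecule, had a UMI in 84.1%, 84.1% and 85.6% of ciliated cells. Sntn, which the rule did not use but which is transcribed with the rule genes, had a UMI in 93.2%, 94.1% and 88.5% of ciliated cells, in 1.86%, 1.87% and 1.81% of other Epcam-positive cells, and in 1.26%, 0.234% and 0.341% of fibroblast-gated cells. A doublet caller marked 37, 3 and 25 of the ciliated cells (7.16%, 1.03% and 4.27%). Among all barcodes within the depth and mitochondrial limits it marked 1030 of 14252, 326 of 7527 and 3495 of 27614. Between 46 and 165 barcodes were shared by a pair of libraries, of which 0 were ciliated in both.

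For the comparisons, the UMIs of all ciliated cells of a library were summed and set against the sum of its other Epcam-positive cells (6736, 4820 and 16314 cells) or of its airway secretory cells (1643, 580 and 2187 cells). The ciliated sums held 6753244, 4164969 and 5128897 UMIs. edgeR's quasi-likelihood test was run over all genes and adjusted p-values are those of Benjamini and Hochberg. The gap between cell types was broad: 10812 of 18237 genes passed an adjusted p of 0.05 against the other Epcam-positive cells (59.3%), 5173 higher in ciliated cells (28.4%) and 5639 lower (30.9%), with a median log2 difference of -0.14. A log2 difference of at least 3 in favour of ciliated cells was reached by 1622 genes (8.89%). With the library as a block (each library's sums compared within it) 11778 genes passed (64.6%), 30.2% of all genes being higher and 34.4% lower. In 12565 genes the 3 ciliated sums did not overlap the 3 others (68.9%). Both sums of a library came from the same animals, and the spread measured is that between 3 pools. Few of the other Epcam-positive cells (980, 342 and 636) had no UMI of the basal genes Krt5 and Trp63. These are called the luminal subset here, with median depths of 9445.5, 12629.5 and 7443 UMIs, and values against them are given where they differ. The name stands for this gate alone, and levels of gland, neuroendocrine and thyroid markers in the subset are not given here. Against the subset 31.1% of 14442 genes were higher and 31.8% lower.

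The genes of the rule were abundant and even across libraries. Tmem212, Dnah5 and Ccdc153 averaged 2083, 1790 and 1646 CPM, and the same genes averaged 6.85, 5.84 and 5.55 CPM in the other Epcam-positive cells. Dynlrb2, a dynein light chain, stood at 1344, 1485 and 1515 CPM in libraries 1, 2 and 3. Foxj1, the transcription factor of the motile cilium, stood at 790, 705 and 871 CPM against a mean of 3.15. The low levels outside the ciliated cells were also present in fibroblast-gated cells, where the 8 genes summed to 29.4, 36.4 and 15.9 CPM against 42.2, 33.9 and 35.7 in the other Epcam-positive cells and 9169, 10242 and 9649 in ciliated cells.

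The structural parts of the axoneme are transcribed together with the rule genes, so their values describe the cells. Beside the background of 28.4%, the counts of genes higher in ciliated cells were 15 of 15 tested outer dynein arm genes, 19 of 19 inner arm genes, 13 of 13 of the nexin-dynein regulatory complex, 17 of 17 radial spoke genes and 22 of 22 central pair genes. Tektins and proteins inside the microtubules had 31 of 32, with Tekt5 at -0.28. The median log2 differences of these groups were 6.19, 7.82, 7.89, 7.69, 7.75 and 7.49. Dnah9, an outer arm heavy chain, measured 942, 1024 and 727 CPM against 3.22, 3.11 and 2.29. Hydin, a giant protein of the central pair, measured 715, 868 and 770 CPM against 2.44, 2.59 and 2.32. Rsph4a, of the radial spoke head, measured 355, 371 and 476 CPM against 1.57, 1.15 and 1.31. Ccdc39, which sets the spacing of arms and spokes, measured 697, 770 and 746 CPM against 4.59, 3.19 and 3.91. No ciliated sum came near the other sum in any of these 4 genes.

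Parts of the cilium that other cells also use showed smaller differences, and the counts below stand beside 28.4% of all genes higher and 30.9% lower. Genes for cytoplasmic assembly of dynein arms were higher in 17 of 18 with a median log2 difference of 3.96, and Pih1d1 stood at 0.16. Intraflagellar transport, the conveyor that builds every cilium, was higher in 31 of 32 with a median of 3.34. Its exception Ttc21b was lower, at -0.54. The BBSome and its partners, which sort cargo at the cilium, were higher in 12 of 13 with a median of 2.22. Basal body and transition zone genes were higher in 34 of 36 with a median of 2.61, and the others, Poc1b and Ofd1, stood at 0.33 and 0.07. Ift88, needed for any cilium to form, measured 525, 548 and 482 CPM in ciliated cells and 43.6, 39.3 and 45.7 CPM in the others, so both groups held it and the groups did not overlap.

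A list of other genes known from airway ciliated cells was higher in 38 of 38 tested (28.4% of all genes), with a median log2 difference of 7.57. Sntn, which lies at chr14:8786378-8798895 on the minus strand, measured 851, 891 and 785 CPM against 2.40, 2.12 and 2.54. Outside every list, Elmod1 had the greatest difference among genes of at least 100 CPM, with 336, 307 and 326 CPM in ciliated cells and 1.03, 0.735 and 0.727 in the others, a log2 difference of 8.74. Elmod1, a regulator of small Arf GTPases, lies at chr9:53817503-53882648 on the minus strand. Ttc21a and Rp1, both of the ciliary shaft, had log2 differences of 8.64 and 8.53. Lmntd1, Gm21149, Efcab6, Ccdc121rt1, Spata18, Fam216b, C230072F16Rik, Cfap65, Cdhr4, Cibar2 and Zbbx completed the 15 widest, of which Lmntd1 led with 8.69. Tppp3, a tubulin-binding protein often used to mark ciliated cells, measured 1016, 1203 and 1262 CPM against 83.8, 67.0 and 137.

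Of 15 tubulin genes 5 were higher and 6 lower, not far from the 28.4% and 30.9% of all genes, with a median log2 difference of -0.10. Tuba1a measured 2652, 3084 and 3862 CPM against 80.5, 63.5 and 95.8, a log2 difference of 5.45 ± 0.23 (SE). Tubb4b, a beta-tubulin of axonemes, measured 2270, 2700 and 3453 CPM against 235, 258 and 311, a log2 difference of 3.51. Tubb5 went the other way, with 37.0, 28.1 and 76.4 CPM against 163, 166 and 278, and was lower by a log2 difference of -1.98. Tuba1c (-2.25), Tuba4a (-2.0), Tubb6 (-1.99) and Tubb3 (-2.48) were also lower. Tuba1a, Tuba1b and Tuba1c are close copies of each other, so the split of their reads is uncertain. The enzymes that modify tubulin tails were higher in 17 of 24 and lower in 1, with a median of 1.82. Ttll6 and Ttll9, which add glutamates, were at log2 differences of 8.19 and 8.20, and Hdac6, a tubulin deacetylase, at -1.79.

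**Figure D2:**
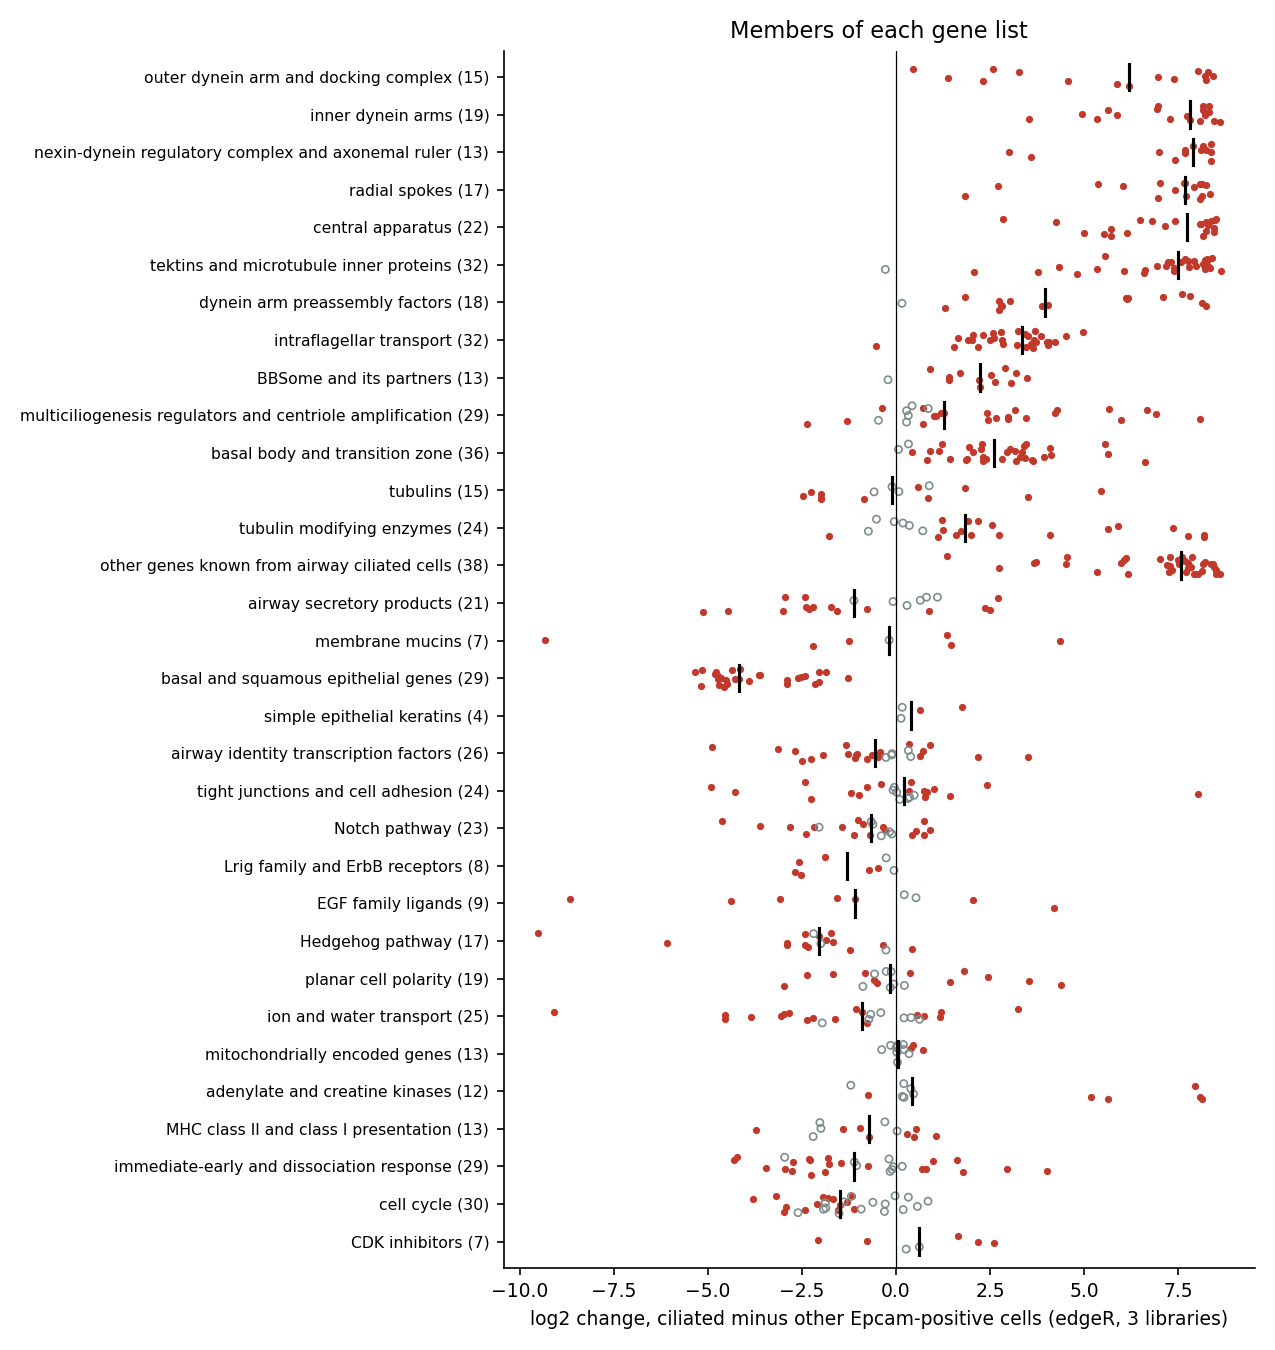
Log2 differences between ciliated and other Epcam-positive cells (horizontal axis) for the tested members of each gene list, with filled points for genes past an adjusted p of 0.05, open points for the others and a black bar at the list median. The axonemal lists have medians of 6.19 to 7.89, basal and squamous genes one of -4.17, and the Lrig and ErbB genes one of -1.29. Muc15, Ereg, Shh and Atp12a, below -8, had no UMI in ciliated cells, so their fitted values depend on the prior count.

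Genes of multiciliogenesis, the programme that precedes the axoneme, were higher in 20 of 29 tested and lower in 3 (28.4% and 30.9% of all genes), with a median log2 difference of 1.27. Transcription factors of the programme were present in every library. Trp73 measured 62.0, 56.9 and 64.9 CPM against 5.90, 6.44 and 10.0, a log2 difference of 3.16. Rfx3 measured 473.8, 480.9 and 391.7 CPM against 68.4, 55.2 and 62.5 (2.98), and Myb 188, 168 and 200 CPM against 20.2, 23.5 and 33.0 (2.98). Rfx2 and Rfx1 had log2 differences of 2.45 and 0.73, and E2f5 one of 1.20. Gmnc, at the top of the programme, measured 31.4, 34.8 and 44.3 CPM and had a log2 difference of 4.22. Ccdc78, at 267, 317 and 313 CPM, and Deup1, at 88.3, 68.9 and 113 CPM, both of the deuterosome on which new centrioles form, had log2 differences of 8.09 and 6.92. The remaining genes higher in ciliated cells were Foxn4 (6.69), Cdc20b (5.99), Ccna1 (5.68), Mcidas (4.28), Ccp110 (3.47), Stil (2.67), Ccno (2.43), Sass6 (1.27), Cep63 (1.07), Pcnt (1.0) and Cenpj (0.73). The value of Foxn4 rested on 11, 3 and 19 UMIs in 6, 1 and 8 ciliated cells of libraries 1, 2 and 3. Geminin (Gmnn, -1.31), the aryl hydrocarbon receptor Ahr (-2.37) and E2f4 (-0.38) were lower. Plk4, the kinase that starts a new centriole, measured 10.5, 2.40 and 17.4 CPM against 5.49, 5.56 and 7.21 (log2 difference 0.86, adjusted p = 0.188).

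Some of these early genes varied strongly between libraries. Mcidas stood at 5.78, 0.720 and 26.1 CPM against 0.652, 0.463 and 0.691 in the other Epcam-positive cells. Cdc20b stood at 13.8, 0.480 and 88.3 CPM against 0.473, 0.328 and 0.871. Ccno stood at 13.03, 3.36 and 30.03 CPM against 3.72, 3.53 and 2.15. In library 2 the ciliated and other sums were thus close, with Ccno slightly lower, and Mcidas and Cdc20b rested on 3 and 2 UMIs. Among ciliated sums all 3 genes were lowest in library 2 and highest in library 3. They are neighbours on the plus strand of chromosome 13, with Ccno at chr13:113124315-113127312, Mcidas at chr13:113130328-113136928 and Cdc20b at chr13:113171632-113227729. The signal sat in few cells. Ciliated cells with a UMI of at least 5 of Mcidas, Gmnc, Deup1, Ccno, Cdc20b, Foxn4 and Ccdc78, a threshold chosen after the values were seen, numbered 7, 1 and 8 in libraries 1, 2 and 3, or 1.35%, 0.345% and 1.37% of the ciliated cells. The other Epcam-positive cells held 1, 0 and 3 such cells. A looser cut of at least 3 of the 7 genes took 74, 44 and 67 ciliated cells. Cells with at least 5 are called early below, a name for this count alone. In libraries 1 and 3 they held 214 and 169 CPM of Ccdc78, less than the 267 and 317 of the remaining ciliated cells. Gmnc stood at 112 and 37.6 CPM against 30.2 and 44.5. Mcidas, Deup1, Ccno, Cdc20b and Foxn4 were at greater levels in the early cells of both libraries, which the choice itself favours.

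Levels of genes outside those 7 differed between these 16 cells and the rest, and are given without a test because of the small number of cells. Sntn stood at 235 CPM in the 7 cells of library 1 and at 0 in the 8 cells of library 3, against 860 and 810 CPM in the remaining ciliated cells of those libraries. It had a UMI in 2 of the 7 and 0 of the 8 cells. A count of 0 in those 8 cells allows up to 18.8 CPM by counting of UMIs alone. By counting of cells, up to 37.5% of such cells could still hold it. Tmem212 was at 867 and 394 CPM against 2178 and 1917, and Hydin at 551 and 325 CPM against 718 and 784. Foxj1 was at 1142 and 1214 CPM against 784 and 860. The rule kept out cells with few rule genes, so it bears on the levels of Foxj1, Tmem212, Tekt1, Rsph1 and Dynlrb2 given here. Plk4 was at 296 and 519 CPM against 6.31 and 1.21, Myb at 724 and 857 CPM against 180 and 179, and Cdkn1a, a cyclin-dependent kinase inhibitor, at 612 and 832 CPM against 225 and 187. Other genes did not follow this division. In library 1 Tekt1 (520 against 385 CPM), Rsph1 (826 against 752) and Dynlrb2 (1509 against 1341) were at greater levels in the early cells, while in library 3 they were at smaller ones (319 against 469, 682 against 1064, and 1214 against 1525). Rfx3 was even, at 479 and 388 CPM against 474 and 391.8, and Trp73 stood at 51.0 and 113 CPM against 62.2 and 63.4. The proliferation marker Mki67, unlike these, was more often detected in the early cells. It had a UMI in 2 of the 7 and 3 of the 8 cells (2 and 4 UMIs), and in 3 of 510 and 9 of 577 remaining cells. The single such cell of library 2 differed from the others, with Sntn at 1004 CPM and Plk4 and Ccno at 0. Median depths were 8313 and 22156.5 UMIs against 8608.5 and 5534 in the remaining cells, so the chosen cells of library 3 were also deeper.

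**Figure D3:**
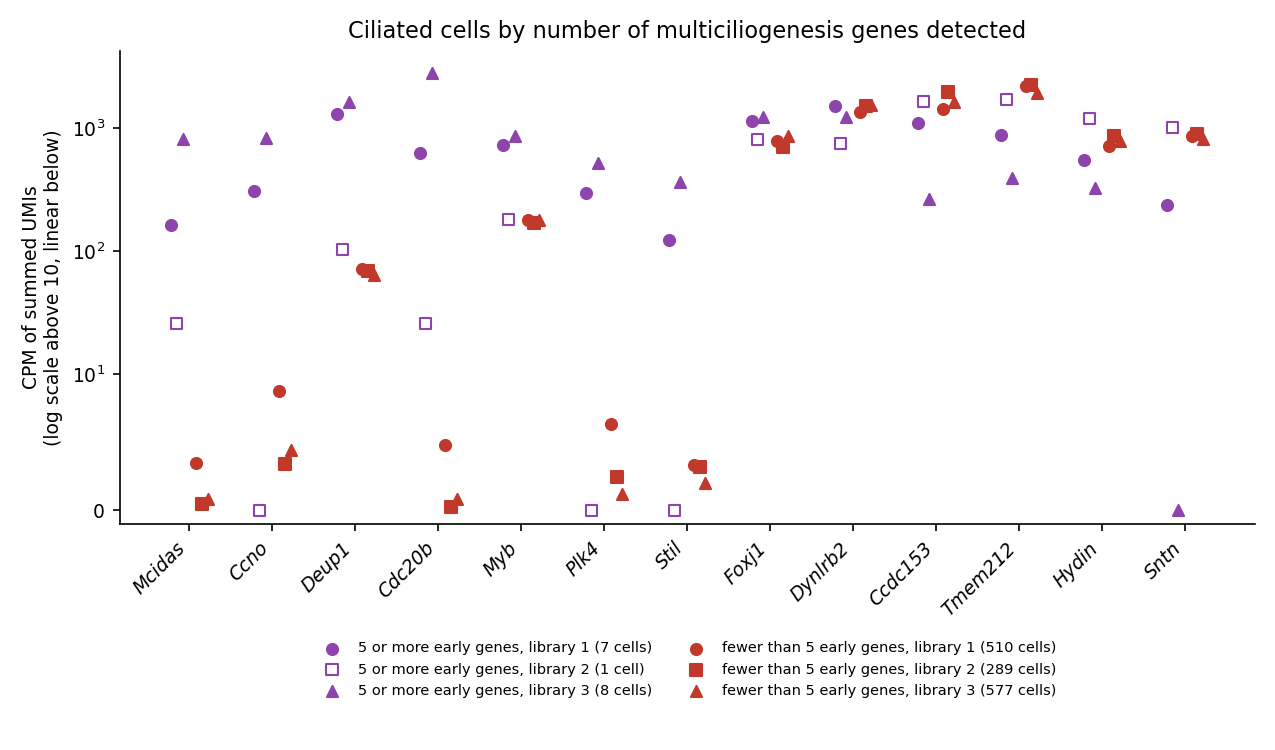
Level in CPM (vertical axis, log scale, linear below 10) of 13 genes in ciliated cells with at least 5 of the 7 early genes (purple, 7, 1 and 8 cells) and in the remaining ciliated cells (red, 510, 289 and 577 cells), with a point for each library. In libraries 1 and 3 Plk4 reads 296 and 519 CPM in the early cells against 6.31 and 1.21, while Sntn reads 235 and 0 against 860 and 810.

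Cell division genes were lower in 14 of 30 and higher in none, against a background of 30.9% lower, with a median log2 difference of -1.50. Mki67 stood at 0.740, 0.720 and 2.73 CPM against 18.6, 7.64 and 36.7 (log2 difference -3.79, adjusted p = 0.00229), and at -0.84 against the luminal subset (adjusted p = 0.275). Ccnd1 and Ccnd2, cyclins of early G1, were lower, at -1.31 and -1.66. Cdk1, which centriole amplification also uses, measured 6.81, 5.04 and 12.1 CPM against 3.60, 2.15 and 8.70 (log2 difference 0.85, adjusted p = 0.204), and was higher than in secretory cells (2.12, adjusted p = 0.00568). In libraries 1 and 3 the early cells held 173 and 194 CPM of Cdk1, against 4.36 and 6.24 in the remaining ciliated cells. With the library as a block 22 cell division genes were lower and 2 higher, beside 34.4% and 30.2% of all genes. Inhibitors of cyclin-dependent kinases were higher in 3 of 7 and lower in 2 (28.4% and 30.9% of all genes). Cdkn1a measured 231, 228 and 207 CPM against 47.2, 37.9 and 33.8, a log2 difference of 2.61 ± 0.14 (SE, adjusted p = 1.85e-06), and 2.03 against the luminal subset. Cdkn2b (2.19) and Cdkn1c (1.64) were also higher, while Cdkn1b (-0.77) and Cdkn2c (-2.06) were lower.

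Keratins separated ciliated cells from the basal layers. All 29 tested basal and squamous genes were lower, with a median log2 difference of -4.17, beside the 30.9% of all genes. The Trp63 limit of the rule bears on these genes, so they are given as a description. Krt15 measured 178, 136 and 453 CPM against 3228, 3438 and 5767, and Aqp3, a water and glycerol channel of basal cells, 61.2, 61.0 and 141 CPM against 2321, 2313 and 3153. Krt14 measured 15.1, 7.92 and 47.6 CPM against 587, 541 and 907. Against the luminal subset Krt15 stood at -2.19, Aqp3 at -1.22, Krt14 at 0.14 and Krt17 at 0.38, so the last 2 did not keep their direction. That subset was chosen for having no Krt5 UMI, which ciliated cells were not (a Krt5 UMI in 21.1%, 17.6% and 43.2%), so its choice bears on these values. Library 3 had the greatest level of all 3 genes in ciliated cells. The simple-epithelium keratins were higher in 2 of 4 (28.4% of all genes). Krt8 measured 377, 449 and 501 CPM against 144, 125 and 159, a log2 difference of 1.76 ± 0.14 (SE, adjusted p = 1.68e-05), and was higher against the luminal subset too (1.01, adjusted p = 0.0015). Krt18, its partner, was higher against all other Epcam-positive cells (0.64, adjusted p = 0.0112) and lower against the luminal subset (-0.78, adjusted p = 0.0239). Without library 1 the first of these calls was lost (0.73, adjusted p = 0.056). Krt19 and Krt7 stood at 0.14 and 0.17 and did not pass the test.

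Airway secretory products were higher in 4 of 21 tested and lower in 11 (28.4% and 30.9% of all genes), with a median log2 difference of -1.12. With the library as a block 7 were higher and 11 lower, beside 30.2% and 34.4% of all genes. Reg3g, an antibacterial lectin, measured 5834, 4176 and 6072 CPM in ciliated cells and 1211, 786 and 697 CPM in the other Epcam-positive cells, a log2 difference of 2.70 ± 0.25 (SE, adjusted p = 4.39e-05). Airway secretory cells, whose gate used Reg3g, held 4487, 4669 and 3696 CPM. The luminal subset did not differ from ciliated cells past the test (0.21, adjusted p = 0.55). Lyz2, a lysozyme that kills bacteria by cutting their walls, measured 3981, 5814 and 4632 CPM against 1575, 840 and 620 (log2 difference 2.38 ± 0.34 SE, adjusted p = 0.000516), with 6159, 6069 and 4302 CPM in secretory cells. Its value against the luminal subset was -0.55 (adjusted p = 0.0626). Reg3g had a UMI in 88.8%, 82.1% and 84.3% of ciliated cells and in 31.6%, 18.03% and 23.1% of fibroblast-gated cells, which held 42.1, 19.5 and 30.9 CPM of Reg3g and 55.7, 29.6 and 34.0 CPM of Lyz2. Hp (2.49) and Lypd2 (0.88) were the others higher in ciliated cells.

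Classical club cell products were lower, and their residual level was uneven among cells. Bpifa1, an abundant secreted antimicrobial protein, measured 4238, 1974 and 1547 CPM against 15178, 7301 and 5852 in the other Epcam-positive cells (log2 difference -1.73 ± 0.47 SE, adjusted p = 0.0132). Secretory cells, whose gate used Bpifa1, held 53755, 43909 and 26073 CPM of it. Fibroblast-gated cells, which should not make it, held 445, 170 and 223 CPM. The 10% of ciliated cells with most Bpifa1 held 90.0%, 92.5% and 85.3% of its UMIs, and the median ciliated cell had 6, 2 and 2 UMIs against 4, 1 and 1 in fibroblast-gated cells. A single cell held 5375 of 28617, 5922 of 8221 and 2147 of 7934 of its UMIs. The part of free RNA or of mixed droplets in this level was not tested. Without library 2 the value of Bpifa1 was -1.71 (adjusted p = 0.0663), and with cells of at least 4 rule genes -0.90 (adjusted p = 0.143). Scgb1a1 (-2.19), Scgb3a2 (-2.41), Muc5b (-2.30) and Slpi (-5.12) were lower as well, although for Scgb1a1 library 3 held 185 CPM against 167, with 867 of its 948 UMIs in 1 cell. Muc5b also differed by library, at 8.59, 3.36 and 33.1 CPM against 139, 65.4 and 39.2, so in library 3 the sums were close. Without library 1 Scgb1a1 stood at -1.67 (adjusted p = 0.184), without library 2 at -1.58 (adjusted p = 0.128), and with cells of at least 4 rule genes at -0.52, where Scgb3a2 stood at -0.97 (adjusted p = 0.124). Cyp2f2, a cytochrome P450 enzyme of club cells, was lower yet still abundant, at 3027, 2884 and 3309 CPM against 5870, 5047 and 6119 (-0.76, adjusted p = 0.00243), and without library 1 the adjusted p was 0.0594. Cbr2, a carbonyl reductase, measured 3208, 3014 and 3162 CPM against 3517, 3428 and 3827 (-0.08, adjusted p = 0.649). Wfdc2, a protease inhibitor, had a log2 difference of 0.29 (adjusted p = 0.0905, and 0.0234 with the library as a block).

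**Figure D4:**
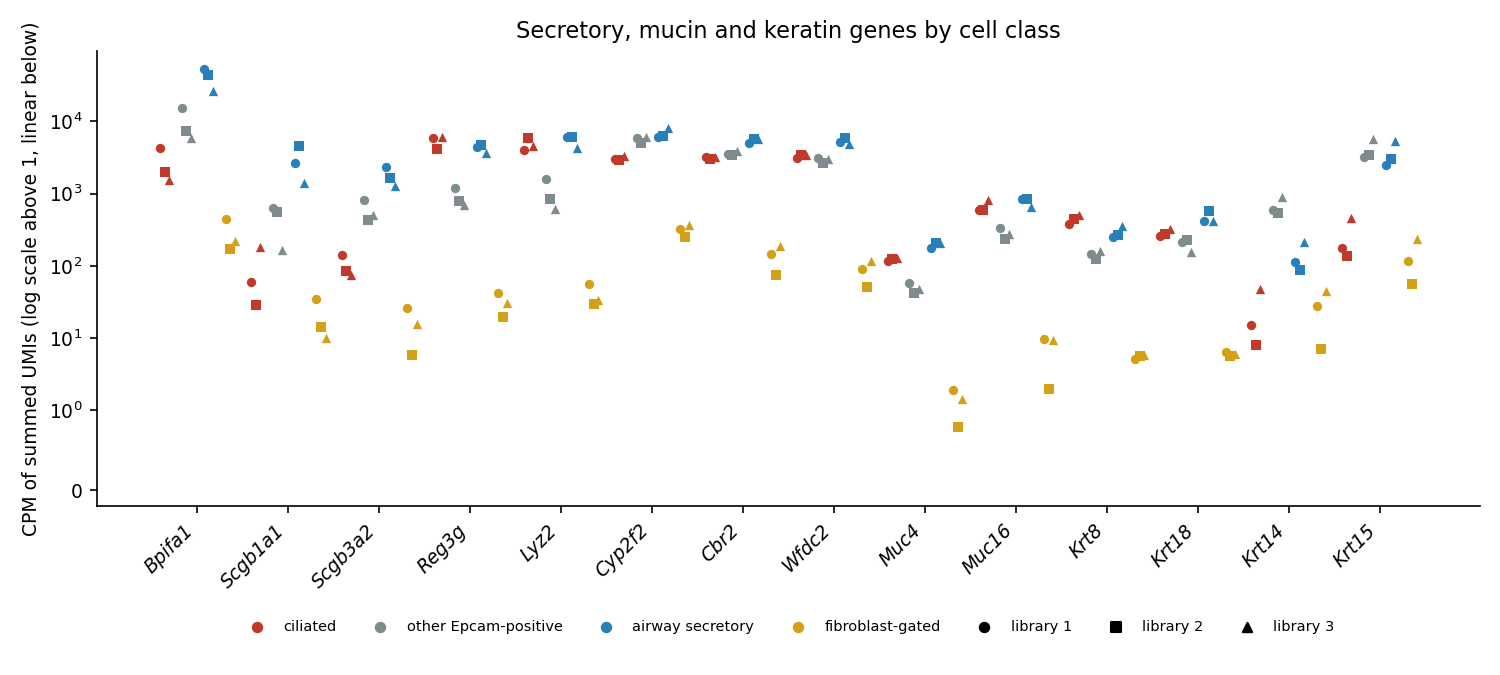
Level in CPM (vertical axis, log scale with a linear stretch near 0) of luminal, secretory and basal genes in ciliated, other Epcam-positive, airway secretory and fibroblast-gated cells, with a point for each library. Reg3g reads 4176 to 6072 CPM in ciliated cells, near the 3696 to 4669 of secretory cells, while Bpifa1 reads 1547 to 4238 in ciliated and 26073 to 53755 in secretory cells. Both genes were used in the secretory gate, which bears on their level in secretory cells.

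Membrane mucins, which form the brush layer around cilia, were higher in 3 of 7 and lower in 3, beside 28.4% and 30.9% of all genes. Muc16 measured 596, 584 and 804 CPM against 332, 233 and 280, a log2 difference of 1.36 ± 0.17 (SE, adjusted p = 0.000204). Muc4 measured 115, 126 and 130 CPM against 58.4, 41.6 and 48.0, a log2 difference of 1.45 (adjusted p = 2.73e-05). Neither was higher against luminal cells, with -0.48 (adjusted p = 0.0568) for Muc16 and -0.50 (adjusted p = 0.00883) for Muc4, and against secretory cells they stood at -0.12 (adjusted p = 0.595) and -0.56 (adjusted p = 0.0037). Muc13 was higher (4.36), and Muc1 (-1.24) and Muc21 (-2.20) were lower. Muc15 had no UMI in ciliated cells.

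Among 26 transcription factors of airway epithelium, 6 were higher and 15 lower (28.4% and 30.9% of all genes), with a median log2 difference of -0.56. The library block gave 8 and 16 (30.2% and 34.4% of all genes). Irx3 measured 166, 134 and 180 CPM against 36.7, 38.0 and 41.6, a log2 difference of 2.17 ± 0.13 (SE, adjusted p = 2.8e-06), and 1.77 against the luminal subset. Foxa2, a forkhead factor of foregut epithelium, measured 29.8, 34.1 and 32.0 CPM against 4.93, 3.24 and 1.11 (3.51 ± 0.49 SE, adjusted p = 0.000422), and did not pass against the luminal subset (0.47, adjusted p = 0.388). Sox2, of the foregut airway, was higher (0.63, adjusted p = 0.00536), as were Irx5 (0.91), Elf3 (0.72) and Grhl2 (0.34). Nkx2-1, which marks lung and tracheal identity, measured 60.6, 36.7 and 75.3 CPM against 66.4, 55.2 and 80.8 (-0.10, adjusted p = 0.729). The inhibitors of DNA binding Id1 (-3.14), Id2 (-2.69) and Id3 (-2.51), targets of BMP signalling, were all lower, also against the luminal subset (-1.98, -2.25 and -2.80). Sox9 (-2.25), Elf5 (-4.89), Klf5 (-1.09), Ehf (-1.03) and Foxp2 (-1.26) were lower.

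Of 24 junction genes 9 were higher and 8 lower, beside 28.4% and 30.9% of all genes. Cdh26, an integrin-binding cadherin, measured 263, 231 and 268 CPM against 1.06, 1.06 and 1.05, a log2 difference of 8.03 ± 0.13 (SE). Cldn3, a tight junction protein, measured 678, 649 and 541 CPM against 143, 131 and 104 (2.43, adjusted p = 6.92e-06), and was higher against the luminal subset (0.91, adjusted p = 0.0102). Ocln (1.44), Cldn7 (1.0) and Cdh1 (0.40) were higher. Cldn1 (-4.91), Nectin1 (-4.29), Cldn10 (-2.42), Pard3 (-2.24) and Cldn4 (-1.20) were lower. Planar polarity genes, which align cilia across the sheet, were higher in 6 of 19 and lower in 6, near the 28.4% and 30.9% of all genes. Prickle2 measured 195, 204 and 153 CPM against 15.7, 4.64 and 8.84 (4.38, adjusted p = 4.3e-05). Intu (3.54), Fuz (2.46), Wdpcp (1.80) and Cplane1 (1.44), which link polarity to basal body docking, were higher, and Celsr1 by less (0.38, adjusted p = 0.0232). The core polarity genes Vangl2 (-2.36), Celsr2 (-2.99), Prickle3 (-1.68) and Vangl1 (-0.59) were lower, with Ptk7 (-0.82) and Ankrd6 (-0.51).

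Notch signalling sets neighbouring cells apart, with ligand on the surface of a cell switching on the receptor of the next and holding it from the ciliated fate. Of 25 genes, 23 were tested, 5 were higher and 12 lower, beside 28.4% and 30.9% of all genes, with a median log2 difference of -0.66. Among receptors, Notch1 (chr2:26347915-26406675, minus strand) measured 8.88, 10.3 and 13.8 CPM in ciliated cells and 84.1, 79.99 and 89.6 CPM in the other Epcam-positive cells, so the groups were far apart. Its log2 difference was -2.83 ± 0.16 (SE, adjusted p = 2.21e-06), and -2.05 against secretory cells, but -0.66 (adjusted p = 0.0708) against the luminal subset. Notch3 was lower in every comparison, at -2.38 ± 0.36 (SE, adjusted p = 0.000714) and -3.67 against the luminal subset. Notch2, the most even receptor, measured 61.2, 49.7 and 55.8 CPM against 87.7, 69.0 and 74.9 (-0.35, adjusted p = 0.0322), a call lost when any of the 3 libraries was left out (adjusted p = 0.0885, 0.12 and 0.073 without libraries 1, 2 and 3) and after thinning to 5000 UMIs (-0.41, adjusted p = 0.0621). Notch4 did not pass.

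Ligands separated in direction. Dll1 measured 0.740, 0.480 and 1.36 CPM against 25.1, 21.5 and 23.6 (-4.62 ± 0.28 SE, adjusted p = 3.71e-06) and was lower against the luminal subset (-2.54, adjusted p = 0.00178). Jag2 measured 9.62, 10.8 and 10.3 CPM against 130, 133 and 144 (-3.61 ± 0.11 SE, adjusted p = 8.28e-08), while its value against the luminal subset was 0.01 (adjusted p = 0.983). Jag1 measured 90.3, 78.5 and 70.6 CPM against 61.8, 61.6 and 69.0 (0.44, adjusted p = 0.0132), and was higher against secretory cells (0.91) and the luminal subset (1.77, adjusted p = 4.62e-05). The call against all other Epcam-positive cells was lost without library 1 (0.29, adjusted p = 0.143) or library 2 (0.44, adjusted p = 0.0916). Lfng, a glycosyltransferase that changes which ligand a Notch receptor answers to, measured 32.9, 27.6 and 27.5 CPM against 17.6, 18.5 and 15.4 (0.90 ± 0.14 SE, adjusted p = 0.000872), and stood at 2.13 against secretory cells and 2.16 against the luminal subset. Its relative Rfng was lower (-1.44). Dll3 and Dll4 did not pass.

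Of the nuclear side of the pathway, Rbpj, the DNA-binding partner of Notch, was higher (0.74, adjusted p = 0.00149) but not against the luminal subset (0.26, adjusted p = 0.263). The targets differed among themselves. Hes1 measured 159, 134 and 133 CPM against 246, 251 and 248 (-0.68, adjusted p = 0.00101) and was lower against the luminal subset (-0.60), and Nrarp, a feedback inhibitor, was lower (-2.16). Hey1 was higher (0.75), not so against the luminal subset (0.23, adjusted p = 0.417), and Hes6, which opposes Hes1, was higher (0.55, adjusted p = 0.0341). Both calls were lost without library 1 (Hey1 0.61, adjusted p = 0.08, and Hes6 0.48, adjusted p = 0.0953) or library 2 (Hey1 0.62, adjusted p = 0.0734, and Hes6 0.61, adjusted p = 0.102). The co-activators Maml1, Maml2 and Maml3 were lower (-1.12, -1.0 and -0.88), as was the Notch antagonist Numb (-0.29). Numbl, Hey2 and Heyl did not pass, and Mfng and Hes5 were too low to be tested.

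Lrig proteins restrain receptors of the epidermal growth factor family, and Lrig1 is the gene whose locus drove the Cre. Of 8 genes of this list 0 were higher and 6 lower, with a median log2 difference of -1.29, beside 30.9% lower among all genes. Lrig1 (chr6:94581510-94677242, minus strand) measured 58.2, 55.7 and 59.9 CPM in ciliated cells against 80.7, 90.8 and 93.0 in the other Epcam-positive cells and 61.3, 73.5 and 79.1 in secretory cells. The log2 difference was -0.49 ± 0.10 (SE, adjusted p = 0.00411), and without library 2 it was -0.42 (adjusted p = 0.0614). Against secretory cells it was -0.17 (adjusted p = 0.24), and against the luminal subset 0.25 (adjusted p = 0.0786). Lrig3 measured 16.9, 14.4 and 15.2 CPM against 90.4, 105 and 97.8 (-2.53 ± 0.13 SE, adjusted p = 1.24e-06), and Lrig2 was lower by less (-0.71, adjusted p = 0.000743). Both were lower against the luminal subset (-0.97, adjusted p = 0.0011, and -0.39, adjusted p = 0.0328).

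Egfr itself measured 50.6, 46.1 and 39.4 CPM against 332, 299 and 324, with no overlap. Its log2 difference was -2.68 ± 0.13 (SE, adjusted p = 8.17e-07), with -1.78 against secretory cells and -1.39 (adjusted p = 0.000205) against the luminal subset. Errfi1, a feedback inhibitor of Egfr, was lower (-2.58, adjusted p = 0.00105), and so was Erbb4 (-1.87 ± 0.46 SE, adjusted p = 0.00862), whose call was lost without library 2 (-1.94, adjusted p = 0.0508). Erbb2 and Erbb3 showed small values that did not pass, with -0.05 (adjusted p = 0.735) and -0.26 (adjusted p = 0.119). Among ligands of these receptors 2 of 9 were higher and 5 lower (28.4% and 30.9% of all genes). Areg, amphiregulin, measured 8.29, 11.3 and 13.5 CPM against 2.60, 1.97 and 4.05 (2.06 ± 0.33 SE, adjusted p = 0.000906) and was higher against the luminal subset (2.38, adjusted p = 0.00286), with a UMI in 5.42%, 4.83% and 3.76% of ciliated cells and in 0.193%, 0% and 0.341% of fibroblast-gated cells, where 0 of 427 allows up to 0.703%. Nrg3, at 1.18 to 1.95 CPM, was also higher (4.20, adjusted p = 0.000877). Hbegf (-3.07), Nrg2 (-4.38), Tgfa (-1.09) and Nrg4 (-1.57) were lower, Ereg had no UMI in ciliated cells, and Btc and Egf stood at 0.53 and 0.22 without passing.

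**Figure D5:**
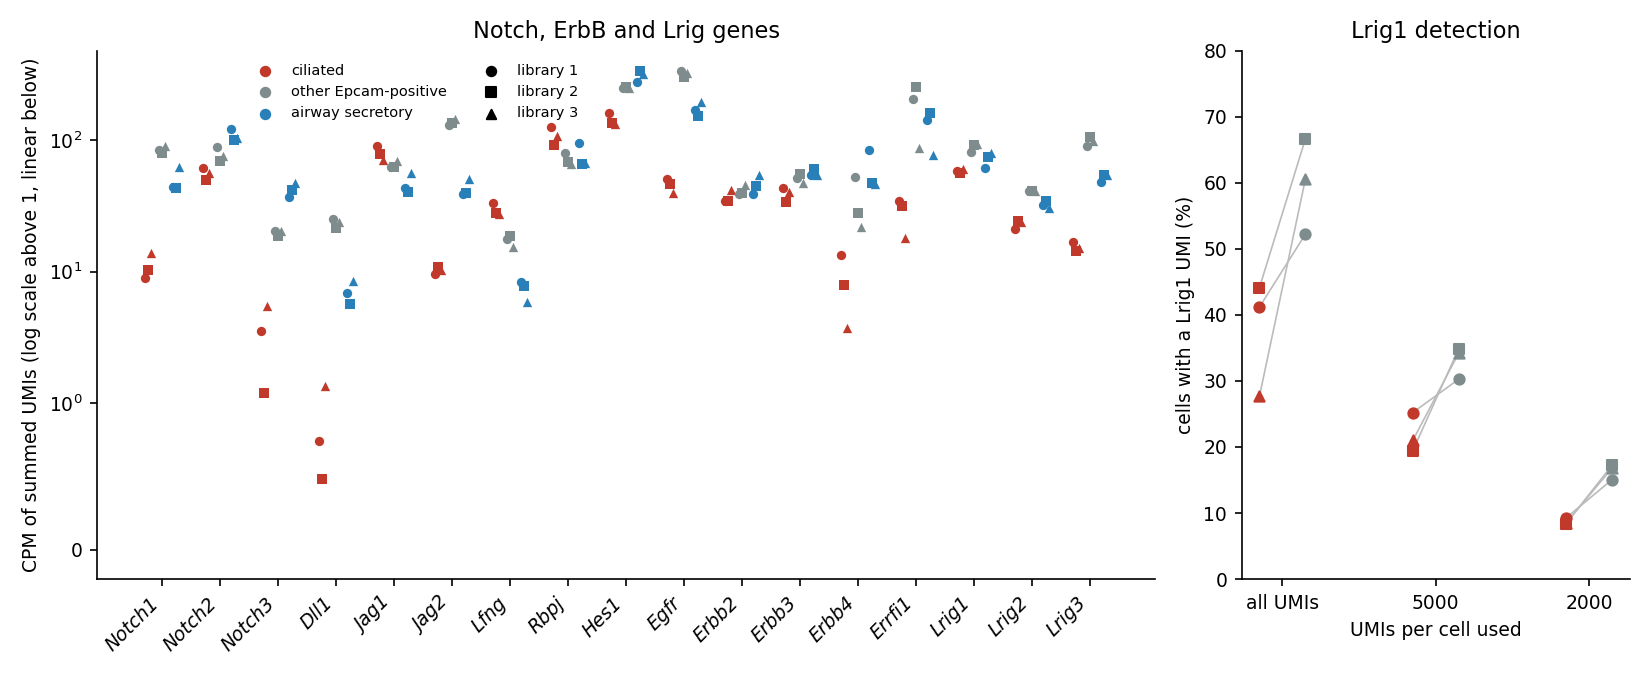
Left, level in CPM (vertical axis, log scale, linear below 1) of Notch, ErbB and Lrig genes in ciliated, other Epcam-positive and airway secretory cells, with a point for each library, and right, percent of cells with a Lrig1 UMI at all UMIs and after thinning to 5000 and 2000 UMIs. Egfr reads 39.4 to 50.6 CPM in ciliated cells against 299 to 332 in the other Epcam-positive cells, and Lrig1 55.7 to 59.9 against 80.7 to 93.0.

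The share of cells with a Lrig1 UMI was 41.2%, 44.1% and 27.7% among ciliated cells and 52.2%, 66.7% and 60.6% among the other Epcam-positive cells, lower in 3 of 3 libraries by -22.2 ± 10.9 percentage points (SD, n = 3; exact sign-flip permutation test, two-sided p = 0.25, the smallest that 3 pairs allow). Because ciliated cells were shallower, cells were also thinned to 5000 UMIs, which kept 892 ciliated and 24763 other cells. The shares were then 25.2%, 19.4% and 21.0% against 30.3%, 34.9% and 34.2%, a difference of -11.3 ± 5.48 points. Thinning to 2000 UMIs gave -7.66 ± 1.63 points. At 5000 UMIs fibroblast-gated cells had a Lrig1 UMI in 14.6%, 20.4% and 21.5% of cells (26.3%, 33.5% and 33.2% unthinned), and secretory cells in 24.6%, 27.3% and 29.8% (38.8%, 54.5% and 47.8% unthinned).

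Ciliated cells with and without a Lrig1 UMI (213, 128 and 162 against 304, 162 and 423 cells) were compared as summed UMIs. Of 11997 genes 0 passed in edgeR's test (0.0%), with a smallest adjusted p of 0.0923, 2381 genes at an unadjusted p under 0.05 (19.8%), and 412 calls by DESeq2. With the library as a block 2147 passed (17.9%), 1138 higher (9.49%) and 1009 lower (8.41%). Cells with a Lrig1 UMI were deeper, with medians of 20664, 18967 and 13764 UMIs against 5469, 6244 and 4316. After thinning both to 5000 UMIs edgeR called 0 genes, and 175 with the library as a block, of which 129 were higher and 46 lower. Genes higher in cells with a Lrig1 UMI were long: with the block on all UMIs the median genomic span was 112 kb for the higher genes, 10.8 kb for the lower genes and 27.8 kb for all tested genes, and after thinning it was 251 kb, 9.76 kb and 30.7 kb. With the block, 12 of 19 inner arm genes were higher and 1 lower, and 15 of 22 central pair genes higher and 1 lower. Outer arm genes stood at 5 higher and 4 lower of 17, genes of the nexin-dynein list at 2 and 2 of 13, radial spoke genes at 7 and 4 of 18, and tektin and microtubule inner protein genes at 4 and 12 of 33. Shallow cells pass the rule only with a large share of rule gene UMIs, so nothing is read from the rule genes here, and the lists transcribed with them are a description. Gland acinar markers were lower in 4 of 4 with the block, with a median log2 difference of -3.68. Among them Dcpp1 stood at 0.701, 6.39 and 1.20 CPM in cells with a Lrig1 UMI against 0.808, 4.65 and 276.6 CPM in cells without, so library 3 alone carried its value, and the Dcpp genes are close copies whose reads are hard to assign. With the block, the widest differences that ran the same way in all 3 libraries were those of Gm17171, D930032P07Rik and Gm21781, higher, and Wfdc18, Mgp and Col23a1, lower, and all but Mgp (122 CPM) were scarce, with ciliated means of 3.85 to 33.9 CPM. Wfdc18 stood at 5.38, 1.505 and 7.99 CPM against 8.49, 1.99 and 175 CPM in cells without a Lrig1 UMI, so library 3 carried most of its difference. In fibroblast-gated cells Mgp measured 8342, 8342 and 11936 CPM and Col23a1 716, 725 and 894 CPM. The part of free RNA or of mixed droplets in their values was not tested. Depth, gene length and Lrig1 cannot be told apart in this comparison.

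Hedgehog pathway genes, which in vertebrates signal through the primary cilium, were higher in 1 of 17 and lower in 13 (28.4% and 30.9% of all genes), with a median log2 difference of -2.05. Smo, the membrane activator, measured 9.62, 11.3 and 12.9 CPM against 62.7, 65.1 and 67.0 (-2.41, adjusted p = 2.01e-06) and stood at -1.93 against the luminal subset. Gli3 (-1.72), Boc (-2.89) and Sufu (-1.67) were lower, and Gli3 stood at 0.22 against the luminal subset. Ptch1, both receptor and target, was the gene higher in ciliated cells, at 38.1, 41.8 and 34.9 CPM against 31.9, 34.7 and 25.9 (0.43, adjusted p = 0.0397), a call lost in 5 alternative settings, among them without library 1 (0.43, adjusted p = 0.169) and without library 2 (0.48, adjusted p = 0.0682). Shh and Dhh had no UMI in ciliated cells.

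Of 25 ion and water transport genes 5 were higher and 13 lower (28.4% and 30.9% of all genes). The scaffold Nherf1, which anchors transporters at the apical membrane, measured 311, 310 and 432 CPM against 36.4, 32.3 and 51.3, a log2 difference of 3.25 ± 0.21 (SE, adjusted p = 5.29e-06), and 2.91 against the luminal subset. The sodium pump subunit Atp1b1 (1.17), Kcnq1 (1.19) and the adenosine receptor Adora2b (0.56) were higher, and Kcnq1 stood at -0.90 against the luminal subset. Among those lower were the water channel Aqp5 (-2.97), the chloride loader Slc12a2 (-3.04), the chloride channel Ano1 (-3.84), and the sodium channel subunits Scnn1b (-4.55) and Scnn1g (-4.54), while Scnn1a stood at 0.40 and did not pass. Trpv4, a calcium channel, was lower (-2.84). Cftr stood at -0.40 (adjusted p = 0.435). Slc26a4 and Atp12a had no UMI in ciliated cells.

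Chaperones and immediate early genes were higher in 7 of 29 and lower in 14 (28.4% and 30.9% of all genes). Hsp90aa1, a heat shock protein, measured 2807, 2423 and 3585 CPM against 426, 394 and 408, a log2 difference of 2.96 ± 0.17 (SE, adjusted p = 2.79e-06), and 3.48 against the luminal subset. Hsph1 (4.0), Dnaja1 (1.63) and Hspa8 (0.99), which work with it in folding, were higher, with Klf2 (1.78), Jund (0.81) and Ier5 (0.70). The heat-inducible Hspa1a and Hspa1b, near-identical copies whose reads are hard to assign, were lower (-2.27 and -2.77). The immediate early genes Egr1 (-3.45), Btg2 (-2.94), Myc (-4.29), Jun (-1.89) and Junb (-2.29) were lower. Fos stood at -1.04 (adjusted p = 0.0675), and at -1.46 (adjusted p = 0.0351) without library 3.

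Among phosphotransfer kinases 5 of 12 were higher and 1 lower (28.4% and 30.9% of all genes). Creatine kinase Ckb measured 283, 276 and 247 CPM against 10.4, 4.17 and 3.22 (5.65, and 2.83 against the luminal subset), and the adenylate kinases Ak1 (5.18), Ak7 (8.09), Ak8 (7.95) and Ak9 (8.14) were higher. Of 13 mitochondrially encoded genes 3 were higher, mt-Nd4 (0.72, adjusted p = 0.00402), mt-Nd2 (0.46) and mt-Cytb (0.39), and 0 lower, beside 28.4% and 30.9% of all genes. The library block gave 4 higher and 1 lower, beside 30.2% and 34.4%. Antigen presentation genes were higher in 4 of 13 and lower in 4, again near the 28.4% and 30.9% of all genes. B2m, the light chain of MHC class I, was lower (-0.95, adjusted p = 0.00155), as were Tap1 (-1.40), Psmb8 (-0.72) and H2-Ab1 (-3.73), while H2-K1 (0.52), H2-DMa (1.07) and Tap2 (0.48) were higher.

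Csf1r, known as the receptor for colony stimulating factor on macrophages, was detected in ciliated cells. It measured 12.6, 13.0 and 7.21 CPM against 3.02, 1.19 and 0.775 in the other Epcam-positive cells, a log2 difference of 2.86 ± 0.53 (SE, adjusted p = 0.00207). A UMI was present in 12.4%, 12.8% and 5.30% of ciliated cells, in 1.57%, 1.12% and 0.828% of the other Epcam-positive cells, and in 0.290%, 0.234% and 0.511% of fibroblast-gated cells. It did not pass against the luminal subset (0.33, adjusted p = 0.657) or, without the library block, against secretory cells (1.44, adjusted p = 0.0912). That 1.44 was the largest value among the 9 macrophage markers tested against secretory cells. With the library as a block the largest was 1.71, and 1 of the 9 was higher. The defining macrophage markers C1qa, C1qb, C1qc, Ptprc and Tyrobp stood between 0 and 3.9 CPM in ciliated cells.

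The macrophage list was higher in 2 of 10 genes, Lyz2 and Csf1r, and lower in 1, and its counts and those of the next lists stand beside 28.4% of all genes higher and 30.9% lower. Macrophage markers summed to 4012, 5834 and 4655 CPM in ciliated cells, nearly all of it Lyz2, and fibroblast markers to 380, 123 and 481 CPM against 876, 293 and 646 in the other Epcam-positive cells and 13163 to 17565 in fibroblast-gated cells. Fibroblast markers were higher in 0 and lower in 0 of 7, endothelial markers likewise in 7, and gland acinar markers likewise in 4 tested of 8. The acinar list summed to 550, 316 and 1138 CPM in ciliated cells against 2607, 1925 and 1764 in the other Epcam-positive cells, mostly Ltf and, in library 3, Dcpp3 (497 CPM), with Bpifa2, Pip and Prol1 at 0 in ciliated cells. Muscle markers were lower in 3 of 8, neuroendocrine markers in 1 of 8, tuft and ionocyte markers in 2 of 7 and thyroid markers in 4 of 5, with Myod1, Myog, Pax8 and Slc5a5 at 0. Counts of 0 called genes in these lists and in those above were also 0 at an unadjusted p under 0.05 in edgeR's test against other Epcam-positive cells. With the library as a block 1 fibroblast, 5 endothelial, 5 muscle, 7 neuroendocrine, 4 thyroid, 2 tuft and ionocyte and 2 macrophage markers were lower (34.4% of all genes), and 2 macrophage and 1 thyroid marker higher (30.2%). Tg, the thyroid hormone precursor, held 275, 248 and 24.4 CPM in the other Epcam-positive cells and 5.04, 4.80 and 0.975 in ciliated cells, a log2 difference of -5.52, with library 3 far below the others in both. Dlk2, Lamb3, Kcnq5, Upk3bl, Ccdc3, Sh3rf2, Tmprss11a, Ifi202b and Vsnl1 completed the 10 widest falls, between -5.20 and -4.80.

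Set against the cells gated as airway secretory, ciliated cells differed in 9148 of 15071 genes (60.7%), 4624 higher and 4524 lower. That gate also held markers of other cell types: gland acinar markers summed to 10955, 13636 and 12785 CPM there against 550, 316 and 1138 CPM in ciliated cells, neuroendocrine markers to 704, 539 and 121 CPM against 3.70, 37.9 and 1.56, and thyroid markers to 854, 542 and 76.1 CPM against 21.2, 21.6 and 24.6. Krt5 had a UMI in 49.7%, 51.6% and 78.6% of the gated cells and in 21.1%, 17.6% and 43.2% of ciliated cells. The part of these cells in the differences below was not tested. The widest differences outside every list were those of Ttc21a (9.83), Frmpd2 (9.65), Cibar2 (9.36), Fam216b (9.34) and Lmntd1 (9.33). Frmpd2, a scaffold protein, measured 329.9, 376 and 227 CPM against 0.620, 0.575 and 0.184. Among genes of at least 100 CPM in the secretory sums the widest falls were Gp2 (-7.60), Tff2 (-7.04), Calca (-6.89), Sbpl (-6.86) and Lipf (-6.76). Tff2, a mucus-associated trefoil peptide, measured 24.9, 10.8 and 31.2 CPM against 4189, 3719 and 1745, and Calca, a peptide also of neuroendocrine cells, varied from 10.3 to 403 CPM among the secretory sums. The list counts that follow stand beside 4624 genes higher and 4524 lower of all 15071 tested. Of the 12 secretory products tested outside the gate 0 were higher and 8 lower, with a median log2 difference of -1.59. The library block gave 1 higher and 8 lower. Membrane mucins were higher in 1 of 6 and lower in 4, Notch genes higher in 4 of 20 and lower in 12, and Lrig and ErbB genes lower in 6 of 8. Krt8 (0.74) and Cdkn1a (2.14) were higher and Krt18 (-0.59) lower against secretory cells, while Lyz2 (-0.07, adjusted p = 0.795) and Lypd2 (-0.11) did not pass.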

How the data were processed

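Sorted tdTomato-positive laryngeal cells were profiled in 3 libraries with Chromium GEM-X 3' chemistry. The authors aligned the reads to mm39 and counted UMIs per gene with Cell Ranger 8.0.1, and deposited raw UMI counts as filtered matrices of 33696 features, which are the values used here. Library totals were 211727921, 147898790 and 413632222 UMIs over 60530 barcodes. Reads of close gene copies may be split or dropped by such counting.

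Kept barcodes had 500 to 8000 genes, a total of 1000 to 40000 UMIs and a mitochondrial share no greater than 8%, less 8360 mixed barcodes that held UMIs of all of Krt5, Ltf, Scgb3a1 and Dcn, which left 41033. A simulation-based doublet score was run before the mixed barcodes were removed. It marked 4851 barcodes, mixed ones included, at an assumed rate of 0.4% per 1000 barcodes. Marked barcodes that were not mixed were retained, 65 of them ciliated cells, and leaving them out was an alternative. Airway secretory cells were Epcam-positive with at least 4 of Scgb1a1, Scgb3a2, Bpifa1, Bpifb1, Reg3g, Muc5b, Cyp2f2 and Cbr2 and fewer than 2 Trp63 UMIs, and fibroblast-gated cells were Epcam-negative with at least 3 of Col1a1, Col1a2, Col3a1, Dcn, Lum and Pdgfra.

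Counts were summed per library and class and tested with edgeR 4.0.16 (TMM, filterByExpr, quasi-likelihood) in R 4.3.3. Genes of the gates were left out of the comparisons they bear on. Wilson intervals cover counting error only. On simulated counts with known log2 changes of 1 and 2 the test recovered 55 and 100 of 100 changed genes among 18572 in the comparison with other Epcam-positive cells. There were 9 false calls. With the block it recovered 44 and 100, and for the Lrig1 split without the block 43 of 100 and 94 of 98. The simulated counts had a fixed dispersion, few changed genes and no link between the sums of a library. They differ from the real sums in this and give no recovery rate for them. Both sums of a library share its animals: the deviations of same-numbered sums correlated at 0.170, 0.291 and 0.291 against other Epcam-positive cells, 0.236, 0.371 and 0.397 against secretory cells, and 0.323, 0.319 and 0.354 for the Lrig1 split, so library number pairs them.

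Alternatives were a replicate block, DESeq2 1.42.0, no filter, each library left out, thresholds of 4 and 6 rule genes, no marked doublets, thinning to 5000 UMIs and the luminal subset. Another was a stricter Trp63 limit, with no Trp63 UMI allowed in ciliated cells. Named were the rule genes, the 15 widest rises and 10 widest falls of at least 100 CPM against other Epcam-positive cells, the 5 widest each way against secretory cells (rises outside every list), the 3 each way in the Lrig1 split, up to 4 most abundant and 2 most changed members of each of 41 lists, and all Notch, Lrig and ErbB and multiciliogenesis genes. Other genes were chosen after their values were seen. The members and lists were chosen with earlier results of these data known. Promoter windows came from GRCm39 with GENCODE gene starts. Some genes of the lists are not reported here.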

Additional observations from a re-analysis of the deposited data

How the results depend on the processing

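The mean share of ciliated cells stayed within 1 SD of its value in every alternative run, between 3.17% after thinning and 4.09% without library 3. The counts of genes that passed against other Epcam-positive cells lay between 8243 (without library 1) and 11778 (replicate block), with 8243 to 10204 when a library was left out. Against secretory cells they lay between 6654 and 10191, with 6654 to 8485 when a library was left out. The difference in the share of cells with a Lrig1 UMI ranged from -27.7 to -16.8 points without each library. In the comparison by Lrig1 UMI the counts moved from 0 to 412 with DESeq2, 421 without a filter, 2147 with the replicate block, and 175 with thinning and the replicate block together, a setting chosen after seeing the data, and stayed at 0 without each library. Among the 73 genes followed through every alternative the replicate block changed the call of Wfdc2 (0.29, adjusted p = 0.0234) and no other. Over those genes and settings 818 values kept direction and side of the threshold, 37 lost the call, 6 gained it and 12 changed sign. Against the luminal subset 11 of these genes turned direction, with Krt18 at -0.78, Krt14 at 0.14, Krt17 at 0.38, Jag2 at 0.0062, Erbb2 at 0.28, Lrig1 at 0.25, Lyz2 at -0.55, Wfdc2 at -0.48, Nkx2-1 at 0.16, Muc16 at -0.48 and Muc4 at -0.50. Nkx2-1 also turned without library 2, with -0.22 to 0.017 over the libraries left out, and the cause of these turns was not tested. Depth limits the shares of cells with a UMI, and levels under 1 CPM rest on few UMIs.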
